A study of Mus musculus with 2 samples.

Results

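The promoters described here belong to 63 protein-coding genes of 8 families of developmental transcription factors, out of 20722 protein-coding genes on chromosomes 1 to 19 of the mouse. The members were all genes there whose symbol is Sox, Lhx, Dlx, Nkx, Irx, Gsx or Msx followed by a number, together with the sine oculis family of homeobox genes, to which Six5 belongs, and they were chosen by name and not by any value in the files. They comprise 18 Sox, 8 Lhx, 6 Dlx, 14 Nkx, 6 sine oculis family, 6 Irx, 2 Gsx and 3 Msx genes. Open chromatin was measured by ATAC-seq, in which a transposase cuts DNA that nucleosomes leave free. The samples were 2 libraries of primary T cells of mouse strain C57BL/6NJ, which form 1 group and are numbered as biological replicates 1 and 2. The labels state no treatment, genotype change or T-cell subset, give age as unknown and sex as not collected, and point to a protocol for differentiating CD4+ T cells. The region names contain unexplained words such as Th0 and ASTARR.insert, so no subset was assumed, and whether fragments were sequenced directly or as inserts of another library is not known. Both libraries carry the same donor record, so the spread between them may be technical, and with 1 group no comparison between conditions was possible.

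The Sox genes encode proteins with an HMG box, a domain that binds the minor groove and bends DNA. The other families encode homeodomain proteins. Lhx proteins also carry LIM domains that bind cofactors such as Ldb1, sine oculis family proteins act with Eya coactivators, and many Nkx, Dlx and Msx proteins recruit Groucho corepressors. Most of these genes are known for patterning the embryo, and in mammals the promoters of such genes are typically rich in CpG and bound by Polycomb complexes in cells where the gene is silent. A few members have described roles in T lineages, among them Sox4 in thymocyte development, Sox12 in regulatory T cells, and Sox5 and Sox13 in gamma delta T cells.

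The authors' lists held 78104 regions in replicate 1 and 74733 in replicate 2, with a median signal value of 6.50 in both. The signal value is the height of a region relative to its local background, read as a fold enrichment, and the −log10 q is the caller's own measure of how far a region stands above background. Read numbers are not given in the sources used here. A promoter with no listed region may therefore have lain below the calling threshold. As a check of the label, 10 of 10 T-cell marker genes had a promoter region in both libraries, against 0 of 5 B-cell, 1 of 5 myeloid, 3 of 5 neural and 4 of 6 epithelial, endothelial or fibroblast markers. The T-cell marker promoters had median signal values of 6.08 and 5.98 in replicates 1 and 2, and a median −log10 q of 147 and 103. Median signal values were higher over the other markers with a region in both libraries. They were 9.22 and 8.94 for epithelial, endothelial or fibroblast markers and 6.46 and 6.87 for neural markers. Cd14, the myeloid marker, had 9.03 and 8.85. The median −log10 q of each of these sets was lower than that of the T-cell markers, at most 94.6 and 69.7.

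The sequences at the summits of member promoters are shown first, because they give the base composition and the short motifs that later counts refer to. The windows are 200 bp centred on the summit of the strongest promoter region in replicate 1, on mm10, printed on the strand of the gene. Capitals mark matches, on either strand, to CAAGTG (NKX2 core), GGGGCGGGG (SP and KLF factors), CCAAT (NFY) and CNAGNNGGC (CTCF core, where N is any base). The first 4 windows come from the strongest promoters whose window holds no untranslated region, Irx5 had the weakest promoter region, and Six5 and Nkx6-1 carry the CCAAT motif.
Sox30, chr11:45980494-45980693: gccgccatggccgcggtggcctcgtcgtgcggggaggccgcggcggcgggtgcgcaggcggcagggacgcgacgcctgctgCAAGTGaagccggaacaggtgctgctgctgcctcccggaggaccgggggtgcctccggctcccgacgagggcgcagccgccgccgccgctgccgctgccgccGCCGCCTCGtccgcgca
Sox6, chr7:116040256-116040455: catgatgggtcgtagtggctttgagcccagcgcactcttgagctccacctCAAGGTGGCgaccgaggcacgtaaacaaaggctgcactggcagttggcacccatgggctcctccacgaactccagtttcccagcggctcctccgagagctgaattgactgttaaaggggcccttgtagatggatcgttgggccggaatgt
Sox21, chr14:118237051-118237250: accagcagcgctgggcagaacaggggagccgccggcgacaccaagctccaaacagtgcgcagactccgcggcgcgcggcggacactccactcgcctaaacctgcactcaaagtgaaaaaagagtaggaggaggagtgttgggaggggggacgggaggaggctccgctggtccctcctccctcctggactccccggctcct
Sox8, chr17:25570728-25570927: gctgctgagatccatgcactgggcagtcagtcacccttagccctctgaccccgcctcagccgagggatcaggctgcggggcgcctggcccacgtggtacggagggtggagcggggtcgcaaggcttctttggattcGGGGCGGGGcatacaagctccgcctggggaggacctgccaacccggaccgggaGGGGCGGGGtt
Irx5, chr8:92358227-92358426: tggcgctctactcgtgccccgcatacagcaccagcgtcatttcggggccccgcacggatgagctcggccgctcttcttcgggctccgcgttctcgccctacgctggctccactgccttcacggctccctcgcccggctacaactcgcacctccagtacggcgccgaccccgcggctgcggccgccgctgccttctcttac
Six5, chr7:19093873-19094072: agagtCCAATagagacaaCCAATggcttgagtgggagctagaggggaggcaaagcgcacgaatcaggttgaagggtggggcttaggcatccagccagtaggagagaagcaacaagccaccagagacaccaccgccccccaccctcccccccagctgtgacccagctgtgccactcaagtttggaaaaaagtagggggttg
Nkx6-1, chr5:101665344-101665543: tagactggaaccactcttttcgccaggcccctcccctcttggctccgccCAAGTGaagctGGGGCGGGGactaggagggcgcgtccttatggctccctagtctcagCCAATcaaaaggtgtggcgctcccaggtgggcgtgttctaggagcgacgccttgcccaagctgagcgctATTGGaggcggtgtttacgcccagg
Sox30, Irx5, Six5 lie on the plus strand and Sox6, Sox21, Sox8 and Nkx6-1 on the minus strand. The Sox30 and Irx5 summits lie in a coding exon, the Sox6 summit lies in an intron of the neighbouring gene 1110004F10Rik, and the other 4 summits lie outside protein-coding transcripts. The Sox30 window has 80% GC and 33 CG dinucleotides, whereas the Six5 window has 57.5% GC and 3 CG dinucleotides. The Six5 window holds 2 CCAAT matches, the Nkx6-1 window holds 2 CCAAT matches with 1 CAAGTG and 1 GGGGCGGGG, and the Sox8 window holds 2 GGGGCGGGG matches.

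Most of these developmental genes had open chromatin at their promoter in the T cells. A region lay in both libraries within 1000 bp of any protein-coding start for 54 of the 63 members (85.7%), against 66.4% of the 20659 other protein-coding genes on the same chromosomes. The member genes are more often CpG-rich than other genes, 73.0% against 39.5%, where CpG-rich means a CpG observed to expected ratio of at least 0.6 and at least 55% GC in the 500 bp on each side of the gene's 5′ end. Within that class the order was the other way, with 39 of 46 CpG-rich members (84.8%) accessible against 96.1% of 8153 other CpG-rich genes. It was also the other way when each library was limited to its 50000 strongest regions, where 24 members (38.1%) and 60.2% of other genes had a promoter region in both. Many of the open member promoters were thus outside the strongest regions of each library.

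By family, all 8 Lhx, all 6 Dlx, both Gsx and all 3 Msx genes, and all 6 of the sine oculis family, had a promoter region in both libraries. So did 15 of 18 Sox, 11 of 14 Nkx and 3 of 6 Irx genes. The homeobox families together had 39 of 45. The Irx genes, which pattern heart, limb and neural tissue and lie in the genome as clusters, were the family with the smallest share. The 6 members with no promoter region in either library were Sox11, Sox14, Nkx6-3, Irx1, Irx4 and Irx6.

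Those 6 promoters differed in how far away the nearest open region was. Sox11, a factor of neural progenitors, lay in a long stretch without any listed region, since the nearest one was 809 kb from a Sox11 transcription start in each library. For Irx6 the nearest region was 180 kb away, and for Irx1 it was 157 kb away. Irx4 and Nkx6-3 instead had regions just beyond the promoter window, at 2.66 kb in replicate 1 and 2.73 kb in replicate 2 for Irx4, and at 3.03 and 3.01 kb for Nkx6-3. The region near Nkx6-3, a factor of the stomach lining, was strong, with signal values of 12.4 and 12.8. The region nearest to Sox14 was 6.59 and 6.48 kb away and weak, with signal values of 2.32 and 2.76.

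A further 3 members had a promoter region in 1 library alone, all of them narrow. Nkx2-2, a factor of the ventral neural tube and pancreatic islets, had one in replicate 1 with a signal value of 2.21, a −log10 q of 2.80 and a width of 378 bp. Nkx2-5, a heart factor, had one in replicate 1 with a signal value of 4.03, a −log10 q of 9.18 and a width of 402 bp. Sox5 had one in replicate 2 with a signal value of 3.18, a −log10 q of 3.24 and a width of 459 bp. These values belong to starts of protein-coding transcripts, and at the 5′ end of the whole gene record the picture differed for a pair of them. There Sox5 had regions with signal values of 7.50 and 8.01 in replicates 1 and 2, and Nkx2-2 had regions with 5.07 and 5.03.

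The open member promoters were weak. The median signal value of the strongest promoter region was 5.11 in replicate 1 and 4.82 in replicate 2 over the 54 members, against 11.4 and 10.9 over the 13719 other genes with a promoter region in both. The mean of the 2 library medians was 4.97 ± 0.203 for members (SD, n = 2 libraries) and 11.1 for other genes. The members' median was thus 0.449 and 0.444 of that of other genes, and the gap was far larger than the difference between the libraries. Other CpG-rich genes had medians of 11.9 and 11.3, so the members were also low beside promoters of CpG-rich genes.

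Nearly all members shared this low signal. Of the 54, 44 (81.5%) had a signal value under the lower quartile of other promoters (8.19 in replicate 1 and 7.90 in replicate 2) in both libraries, against 22.7% of the other genes. Above the median of other promoters in both libraries there was 1 member, Sox30, against 46.9% of the other genes. Member values ranged from 2.19 to 13.4 in replicate 1 and from 2.12 to 13.9 in replicate 2. All of these are the caller's values and carry no test.

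**Figure D1:**
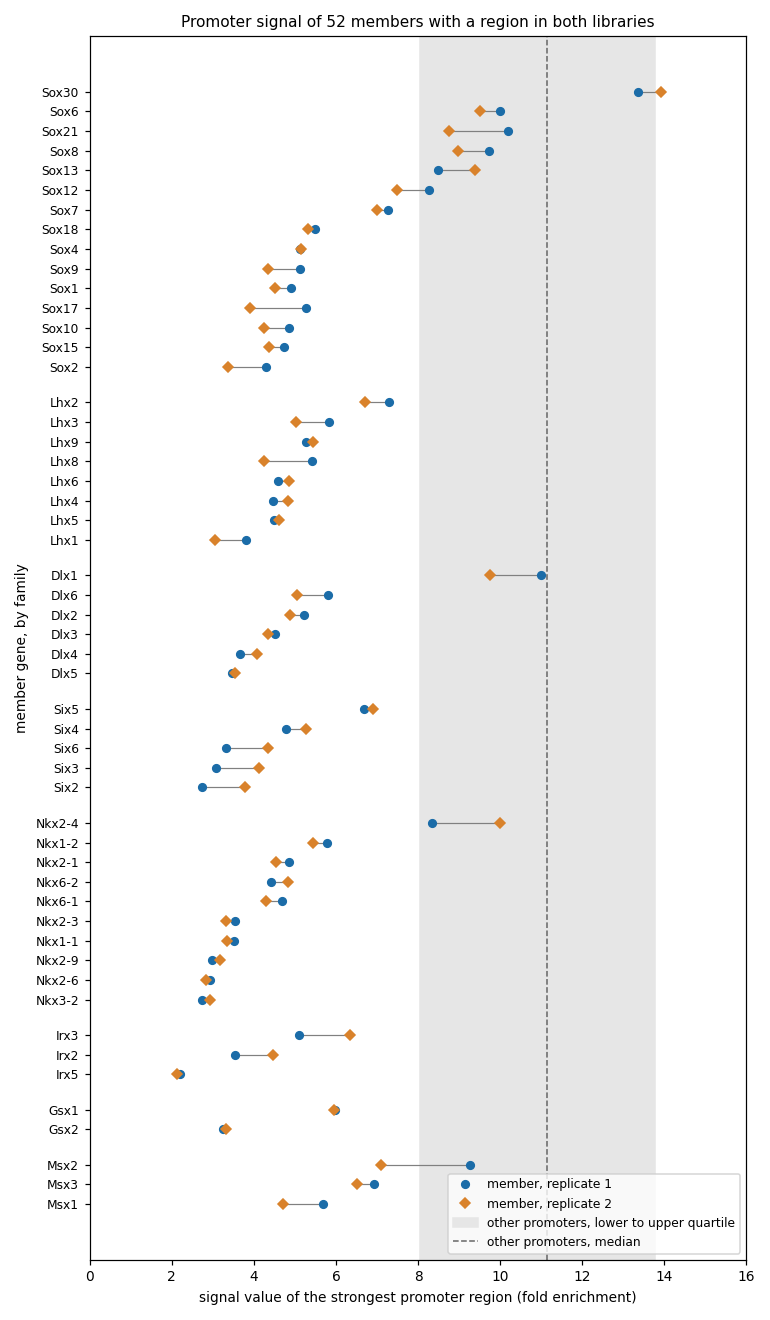
Signal value of the strongest promoter region (x axis, fold enrichment) for 52 of the 54 members with a region in both libraries, by family and in falling order within a family. Circles are replicate 1, diamonds replicate 2, the grey band runs from the lower to the upper quartile of the other promoters (averaged over the libraries) and the dashed line is their median. Sox30 is the only member right of the line in both libraries, and most members lie left of the band.

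The plot of signal by member shows a few Sox genes, Dlx1 and Nkx2-4 standing apart from the other drawn members of their families. Sox30, a gene of male germ cells, was highest with 13.4 in replicate 1 and 13.9 in replicate 2. Dlx1, a factor of forebrain interneurons, had 11.004 and 9.75, whereas its neighbour Dlx2 had 5.21 and 4.88. The Dlx1 region in replicate 1 lay at chr2:71528803-71530265. Sox6, which acts in cartilage and red cells, had 9.99 and 9.50, but its strongest region had its summit at position -1612 from the Sox6 start (negative is upstream) in both libraries. That region also lay within 1000 bp of a start of the gene 1110004F10Rik. The Sox6 value can therefore not be assigned to Sox6 alone, and the same holds for Six6 (3.31 and 4.35), whose region lies within 1000 bp of a start of 4930447C04Rik.

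Sox21 had 10.2 and 8.75, and Sox8 had 9.73 and 8.97. Both are known from the nervous system, and in both the summit lay upstream of the start. Nkx2-4 had 8.34 and 9.99, with its summits 1551 and 1755 bp downstream of the start, which is within the gene, since the gene is 2.13 kb long. Msx2, which acts in skull and limb, had 9.25 and 7.09, against 6.93 and 6.51 at Msx3.

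At the other end, the weakest regions were spread over several families. Irx5, a heart and retina factor, had 2.19 and 2.12, the lowest values among the members in both libraries. Nkx3-2, a cartilage factor, had 2.74 and 2.93, and Nkx2-6, a factor of the pharynx and heart, had 2.93 and 2.83. Nkx2-9 had 2.98 and 3.18, and Gsx2, which acts in progenitors of the striatum, had 3.24 and 3.31. These 5 were chosen by the mean of their signal percentiles in both libraries, so low values in both follow from the choice.

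Members with known roles in T lineages were not the strongest of the group, but Sox12 and Sox13 lay above its medians. Sox4 had signal values of 5.13 in replicate 1 and 5.15 in replicate 2, close to the members' medians. Sox12 had 8.26 and 7.50, and Sox13 had 8.49 and 9.40, against medians of 5.11 and 4.82 over the members. Sox5 had 3.18 in replicate 2 alone at a protein-coding start, and 7.50 and 8.01 at the 5′ end of its gene record. The relatives of the Sox genes that carry an HMG box and act in T cells, Tcf7, Lef1, Tox, Tox2, Tcf7l1 and Tcf7l2, all had a promoter region in both libraries, with median signal values of 7.15 and 6.86. Tcf7, the gene for the T-cell factor TCF1, had 3.65 and 4.11, so a low signal value was also seen at a gene that T cells are known to use. The −log10 q set these relatives further apart from the members. Its median was 99.4 and 81.5 over the relatives, against 22.7 and 15.9 over the members. Tcf7 had 36.5 and 34.5, and Tcf7l2 had 22.6 and 36.9.

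The −log10 q was low at member promoters too. Its median was 22.7 in replicate 1 and 15.9 in replicate 2 over the 54 members, against 177 and 124 over the other genes and 214 and 150 over other CpG-rich genes. The mean of the library medians was 19.3 ± 4.86 for members (SD, n = 2 libraries). The 2 quantities gave different orders among the members. Six5, which lies next to the myotonic dystrophy kinase gene, had the highest −log10 q, 215 and 171, with a signal value of only 6.68 and 6.89. Dlx1 had 198 and 125, Lhx2 had 174 and 105, and Sox12 had 160 and 97.7. Sox30, first by signal value, had 84.2 and 67.8.

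**Figure D2:**
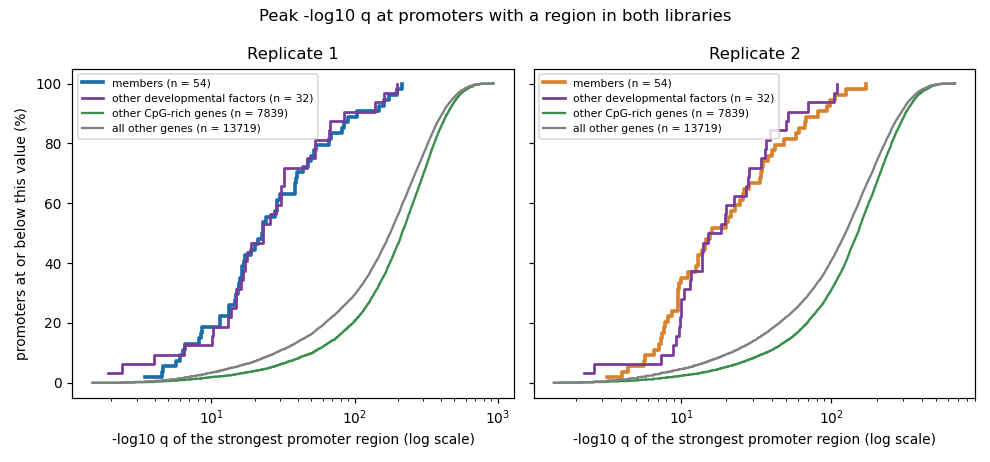
Cumulative share of promoters (y axis, percent) by the −log10 q of their strongest region (x axis, log scale), in replicate 1 (left) and replicate 2 (right). Members (n = 54), 32 other developmental factors, other CpG-rich genes (n = 7839) and all other genes (n = 13719) are the 4 lines, and the members' line runs with that of the other developmental factors and far left of the remaining 2.

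A list of 38 developmental factors from other families (Pax, Otx, Emx, Lmx1, Isl, Tlx, Hand, Neurog, Olig, Foxa, Gata, Tbx, Pitx, En and others) behaved much like the members, as the cumulative plot shows. Of these, 32 (84.2%) had a promoter region in both libraries. Their median signal values were 5.58 and 5.06, their median −log10 q was 22.9 and 16.8, and their median width was 1235.5 and 1212.5 bp. Low signal at open developmental promoters was thus not seen in the 8 families alone. Within that list Tbx3 had 12.1 and 11.8, Isl1 had 11.4 and 10.5, and Pax7 had 2.65 and 2.69.

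Genes for proteins that work with the members, or that bind such promoters, had higher median signal values than the members. For comparison, the medians over all other genes were 11.4 and 10.9. All 18 measured Polycomb subunits had a promoter region in both libraries, with median signal values of 10.8 and 10.1. Ezh2, the histone methyltransferase of Polycomb complex 2, had 11.04 and 10.05, and Suz12, its partner, had 13.7 and 14.2. Of the Eya and Dach genes, whose products act with the sine oculis family, 4 of 5 had a region, with medians of 12.2 and 10.6, and Eya3 had 17.8 and 16.7. Of the Groucho corepressors, 4 of 5 had a region, with medians of 9.16 and 8.21. Of the LIM partners, 4 of 6 had a region, with medians of 7.18 and 7.77, and Ldb1 itself had 4.96 and 5.50.

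Width did not separate the members from other promoters. The median width of the strongest region was 1309 bp in replicate 1 and 1168 bp in replicate 2 over the 54 members, against 1263 and 1248 bp over the other genes, so the difference changed sign between the libraries. The members spread wider than other promoters. In replicate 1, 18 members lay under the lower quartile of other promoters and 20 above their upper quartile, and in replicate 2 the counts were 21 and 16.

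**Figure D3:**
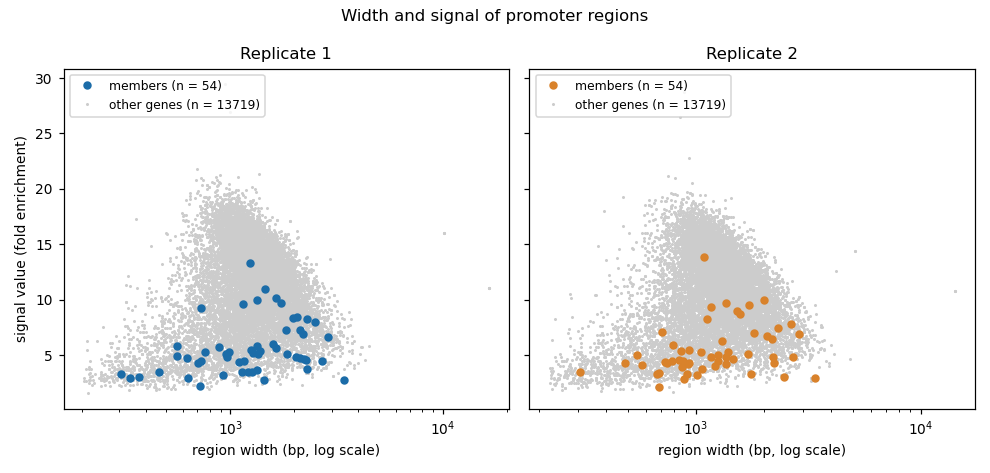
Width (x axis, bp, log scale) and signal value (y axis, fold enrichment) of the strongest promoter region in replicate 1 (left) and replicate 2 (right). Coloured points are the 54 members and grey points the 13719 other genes, and the members lie along the lower edge of the cloud from narrow to wide.

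The scatter of width and signal shows members that were wide and yet low. Nkx3-2 had the widest region of all members, 3412 bp in replicate 1 and 3378 bp in replicate 2, with one of the lowest signal values. In replicate 1 it lay at chr5:41761460-41764871 and spanned the whole 3.02 kb gene. Six5 followed with 2889 and 2879 bp. Lhx4, a pituitary factor, had 2700 and 2713 bp at signal values of 4.46 and 4.83. Lhx1, which acts in the head organizer and kidney, had 2294 and 2475 bp at signal values of 3.80 and 3.06. In all, 10 members had a mean width above 2000 bp, but the share of other promoters above that width was not counted.

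Around the 5′ end the members had more open sequence, in more pieces, than other genes. Within 5 kb on each side of the gene's 5′ end a median of 2130.5 bp in replicate 1 and 1992.5 bp in replicate 2 was covered over the 54 members, against 1450 and 1415 bp over other genes. The median number of regions in that stretch was 2 for members and 1 for other genes in each library. More than 1 region touched the promoter window in 14 members (25.9%) and 15 members (27.8%), against 14.3% and 13.6% of other genes. Member genes are short, with a median length of 5.38 kb against 17.7 kb. Against the 1749 accessible other CpG-rich genes of at most 10 kb, the 32 accessible CpG-rich members of at most 10 kb still covered more, 2163 and 2017 bp against 1618 and 1590 bp. In the same short genes more than 1 region touched the promoter in 21.9% and 21.9% of members, against 5.95% and 6.00% of other genes.

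**Figure D4:**
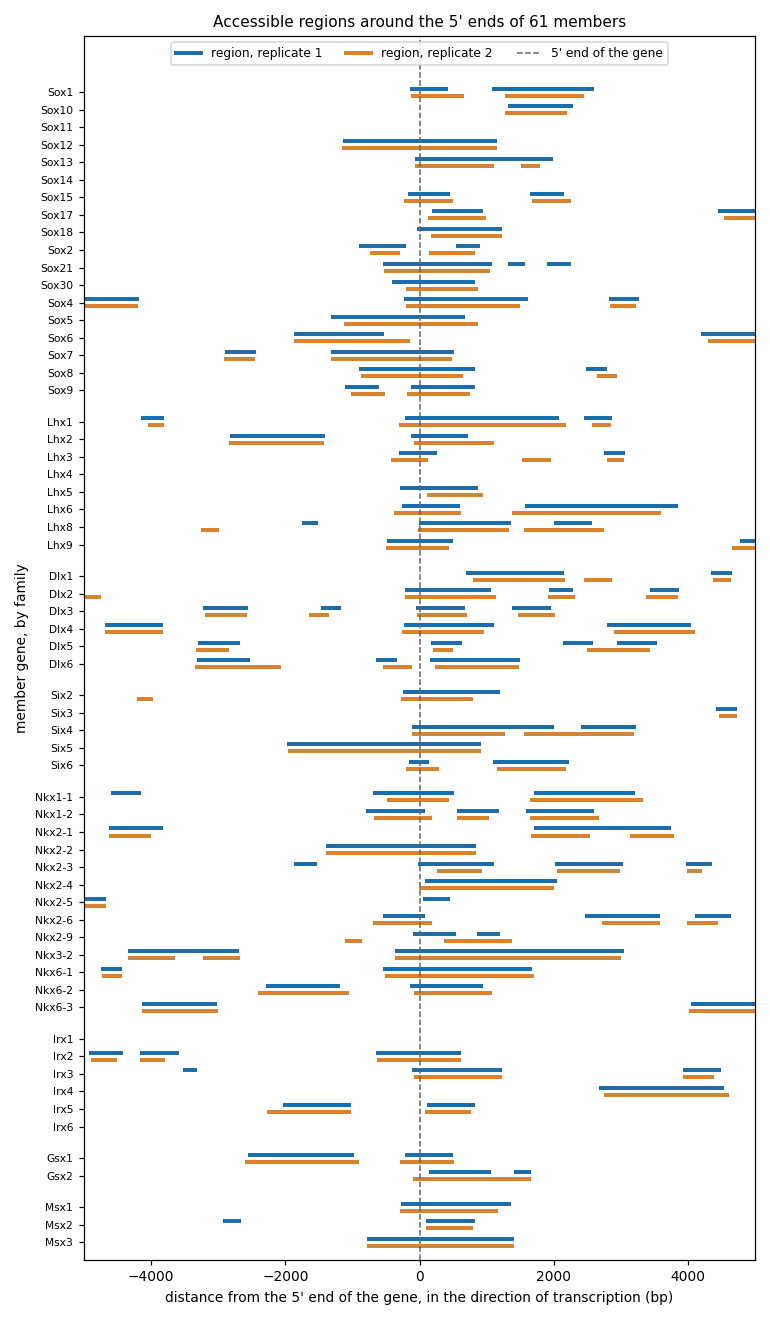
Accessible regions within 5 kb of the 5′ end of 61 of the 63 members (rows, by family), drawn to scale along the direction of transcription (x axis, bp), with replicate 1 above replicate 2 in each row. Many rows hold several separate regions, some rows are empty, and regions often lie to the right of the start.

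The map around the 5′ ends also shows that regions were often shifted off the start. The median distance between the summit and the nearest protein-coding start of the gene was 346.5 bp in replicate 1 and 317 bp in replicate 2 for members, against 83 and 84 bp for other genes. The summit lay downstream of the start in 61.1% and 68.5% of members, against 41.2% and 42.2% of other genes. Among accessible CpG-rich genes of at most 10 kb the gap was smaller, with 53.1% and 56.25% of members against 41.5% and 40.7% of other genes. The summit fell in a coding exon in 17 members (31.5%) and 18 members (33.3%), against 7.73% and 7.84% of other genes on the chromosomes of the members. Among other CpG-rich genes of at most 10 kb there, the share in a coding exon was 13.1% and 12.6%. Gsx2, Irx5, Nkx2-9 and Sox30 were among those with a coding exon at the summit, while Sox4 had its summit 22 and 19 bp from the start.

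Agreement between the libraries was a little lower at these weak regions. The strongest regions of the 2 libraries overlapped in 51 of the 54 members (94.4%), against 98.6% of other genes, and the exceptions were Sox2, Six3 and Gsx1. Signal values in replicate 1 were a median of 1.04 times those in replicate 2 for members and 1.04 for other genes. The SD of the log2 ratio was 0.200 for members and 0.157 for other genes. Differences between single members of less than about that spread cannot be read as an order.

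Summit sequences of members and other promoters had nearly the same GC content, with medians of 66.8% and 65.5% in members against 65.0% and 65.0% in other genes. Of the 10 motifs counted at summits in both libraries, the ETS motif CCGGAAG had the largest gap, with 0 members against 13.1% of other genes. Within each library it was found, on either strand, at 0 member summits in replicate 1 and 2 member summits in replicate 2 (3.70%), against 14.8% and 14.4% of the 13719 other summits and 16.2% and 15.8% of other CpG-rich summits. The NFY motif CCAAT, shown above in Six5 and Nkx6-1, was present at 22 member summits (40.7%) in replicate 1 and 16 (29.6%) in replicate 2, against 30.1% and 30.1% of other genes. It was there in both libraries in 15 members (27.8%), against 27.2% of other genes. These members ranged from stronger promoters such as Dlx1 to weak ones such as Six6 and Dlx4. The GGGGCGGGG motif was present in both libraries in 5 members (9.26%), Sox8 and Nkx6-1 among them, against 13.6% of other genes.

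The motifs that members' own proteins are known to bind showed no common pattern. The homeodomain core TAATTA was at 0 member summits in each library, against 0.685% of other genes in replicate 1 and 0.612% in replicate 2. The SOX core ACAAT was at 9.26% and 3.70% of member summits, against 9.38% and 9.62%, and Dlx2 was the 1 member with it in both libraries. The NKX2 core CAAGTG was at 9.26% and 14.8% of member summits, against 5.91% and 5.86%, and 4 members had it in both libraries, Sox30, Lhx6, Nkx1-2 and Nkx6-1. Of the motifs of other factors, AP-1 (TGANTCA) was at 3.70% and 3.70% of member summits, against 4.83% and 4.92%. RUNX (TGTGGT) was at 7.41% and 14.8%, against 8.16% and 8.01%. CRE (TGACGTCA) was at 0 members in each library, against 2.47% and 2.37%. The CTCF core CNAGNNGGC was at 24.1% and 25.9%, against 24.6% and 24.5%. A match is a match of letters and not a bound site, and short motifs can overlap each other in a window.

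Member loci also held accessible regions outside promoters. A non-promoter region is one found in both libraries with no base within 1000 bp of any protein-coding start, and a locus is the gene with 20 kb on each side. A region at the 5′ end of a gene record can thus count as non-promoter, as at Sox5 and Nkx2-2. At least 1 such region was present in 51 of the 63 member loci (81.0%), against 73.2% of other genes, and the median was 2 regions in both. Beside the median of other genes in the same length decile, 37 members (58.7%) had more, against 41.9% of the other genes, while 16 members (25.4%) had fewer, against 40.9%. Per 100 kb of locus the median was 4.46 regions in members and 2.70 in other genes. Among CpG-rich genes of at most 10 kb, 27 of 37 members (73.0%) had at least 1 region, against 82.0% of 1810 other genes, and 56.8% of members had more than the same-length median, against 55.4%. There the median per 100 kb was 4.499 in members and 4.202 in other genes. In 31 of the 63 loci another protein-coding gene shares the window, and its regions are then counted for the member too.

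**Figure D5:**
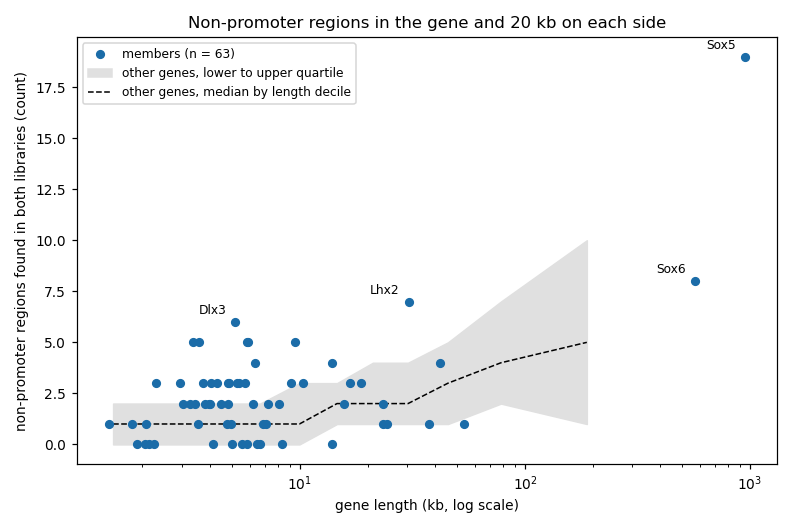
Number of non-promoter regions found in both libraries in each gene with 20 kb on each side (y axis) by gene length (x axis, kb, log scale). Points are the 63 members, the dashed line is the median and the band the lower to upper quartile of other genes in each length decile, and Sox5 stands highest with 19.

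Sox5, at chr6:143828425-144781977, had the most non-promoter regions, 19 in a gene of 953.6 kb, against a median of 5 in other genes of the top length decile. Per 100 kb of locus this was 1.91 regions, against a median of 2.70 over all other genes, whose median length was 17.7 kb. The median per 100 kb in other genes of similar length was not counted, and the part that length has in the count was not tested. Signal values of the 19 regions ranged from 2.73 to 15.8 in replicate 1, with a median of 9.27, and from 3.22 to 14.2 in replicate 2, with a median of 8.91. The region at a protein-coding start of Sox5 had 3.18 in replicate 2 alone, and the region at the 5′ end of its gene record had 7.50 and 8.01. In 8 of the 19 the signal value was above 10 in both libraries. The share of non-promoter regions outside member loci above 10 was not counted, and their median signal values were 6.73 and 6.45. Of the 19 regions, 1 is the region at the 5′ end of the gene record given above. An AP-1 motif was found at 8 of the 19 summits and a RUNX motif at 7, against 30.0% and 23.7% of the non-promoter regions outside member loci. Sox6 had 8 non-promoter regions, or 1.32 per 100 kb of locus. Their signal values had medians of 8.94 and 9.12 and a range of 4.63 to 14.3 in replicate 1 and 4.14 to 12.3 in replicate 2.

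Among shorter genes, Lhx2, a factor of the forebrain and hair follicle, had 7 regions against a median of 2 in genes of its length, with signal values of 1.75 to 9.83 in replicate 1 and 1.96 to 9.07 in replicate 2. Dlx3, which acts in placenta, skin and teeth, had 6 against 1, and 3 of the 6 were also counted for its neighbour Dlx4. Dlx1 had 5 against 1, and all 5 were also counted for Dlx2. Dlx2, Dlx4, Lhx5 and Nkx2-3 also had 5. Of all regions in member loci, 14 were counted for more than 1 member, and the neighbouring pairs Dlx1 and Dlx2, Dlx3 and Dlx4, and Dlx5 and Dlx6 were among the genes concerned.

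The strongest non-promoter windows of Sox5 and Nkx2-3 are shown because they were the strongest regions of their loci. They are 200 bp on mm10 on the plus strand, and both lie outside protein-coding transcripts. Capitals mark TGANTCA (AP-1), CAAGTG (NKX2 core) and CNAGNNGGC (CTCF core) on either strand, and adjoining matches run together in 1 stretch of capitals. Nkx2-3, a factor of spleen and gut vessels, was chosen after its values were seen, since its region had the highest signal value of any non-promoter region in a member locus.
Sox5 non-promoter 1, chr6:144640632-144640831: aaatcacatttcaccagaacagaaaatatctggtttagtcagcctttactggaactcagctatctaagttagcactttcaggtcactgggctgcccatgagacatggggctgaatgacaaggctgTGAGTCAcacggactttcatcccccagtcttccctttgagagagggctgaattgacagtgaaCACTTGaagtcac
Nkx2-3 non-promoter 1, chr19:43624035-43624234: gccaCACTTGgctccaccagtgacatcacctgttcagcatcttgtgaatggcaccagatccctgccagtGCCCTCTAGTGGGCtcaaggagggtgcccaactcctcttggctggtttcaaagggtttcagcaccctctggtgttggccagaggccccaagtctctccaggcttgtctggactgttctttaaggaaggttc
The Sox5 region had signal values of 15.8 in replicate 1 and 14.2 in replicate 2, and the Nkx2-3 region had 18.97 and 16.3. The promoter of Nkx2-3 itself had 3.53 and 3.32. The Sox5 window has 46.5% GC and 1 CG dinucleotide, and the Nkx2-3 window has 56% GC and 0 CG dinucleotides.

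In most member loci with both kinds of region, a non-promoter region was stronger than the promoter. Where a gene had both kinds, the strongest non-promoter region exceeded the promoter in signal value in both libraries for 30 of 45 members (66.7%), against 41.1% of 12161 other genes and 37.6% of 7065 other CpG-rich genes. Over those 45 members the strongest non-promoter region had medians of 7.45 and 7.43 and the promoter 5.10 and 4.86. In the other genes these were 10.3 and 9.85 at the strongest non-promoter region and 11.3 and 10.8 at the promoter.

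All 143 non-promoter regions of member loci were, as a set, weaker and richer in GC than the 50718 others. Their median signal values were 5.27 and 4.89, against 6.73 and 6.45, and their median summit GC was 56%, against 48%. The AP-1 motif was at 25 of them (17.5%), against 30.0% of the others, and the RUNX motif at 20 (14.0%), against 23.7%. The CTCF core was at 32 (22.4%), against 15.9%, and the ETS motif at 7 (4.90%), against 1.78%. Regions at the 5′ end of a gene record, such as those of Sox5 and Nkx2-2, are among the 143. The part that GC content has in these shares was not tested.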

How the data were processed

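ATAC-seq regions of 2 libraries of mouse T cells were analysed as the authors deposited them, in narrowPeak files on mm10 (the GRCm38 assembly), called on each library alone per the labels. Which aligner and caller were used, with which versions and threshold, is not given in the sources used here. The deposited signal value was read as a ratio, fold enrichment over local background, from its values alone. The authors' −log10 q values were used as deposited, and their −log10 p values were not used. In 99.9987% of regions the deposited score restated the −log10 q (10 times its value, cut to whole numbers, 1000 at most). These are the caller's values, with no scaling between libraries stated. Depth is unknown, so no interval could be given.

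Starts and gene bodies of protein-coding genes came from GENCODE mouse release 21, and sequence from RefSeq's copy of GRCm38. A gene's promoter region was the one with the highest signal value among those with any base within 1000 bp of a protein-coding start. Non-promoter regions were merged over the libraries at an overlap of at least 1 bp. GC and motifs were read from 200 bp at each summit, and windows touching an untranslated region were not printed. Of the symbols that fit the families, 1 lay outside chromosomes 1 to 19 and was left out. In the other lists Dach2, Tle5 and Rbbp7 were not matched on chromosomes 1 to 19. Members, lists and motifs were chosen with earlier results of these data known, so counts and medians carry no test. Members given in full were the 10 strongest, 5 widest and 5 weakest, those with a region in 1 library, the 5 with the most non-promoter regions and those known in T cells, except that 2 members are counted throughout but not reported here by name. Code was written in Python 3.11.15 with pandas 2.3.3, numpy 2.4.6 and pysam 0.24.0, and was tested on simulated data. Alternatives were thresholds, promoter distances, flanks and each library alone.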

Additional observations from a re-analysis of the deposited data

How the results depend on the processing

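The share of members with a promoter region in both libraries was above that of other genes in 10 of 11 settings and below it with the 50000 strongest regions of each library, where 24 members (38.1%) against 60.2% of other genes had one. It was 49 members at a −log10 q of at least 5, and 55 and 56 when either library was left out. The members' median signal value and −log10 q were below those of other genes in all 11 settings. Their medians, averaged over the libraries, were 4.97 and 19.3, and with the 50000 strongest regions 7.11 and 46.9. Using all regions at the promoter gave a signal value of 4.58. The median width, 1238.5 bp, lay below that of other genes in 7 settings and above it in 4, and was 1446.75 bp with the 50000 strongest regions and 1110 bp with all regions. The median of 2 non-promoter regions became 1 with the 50000 strongest regions, 0 in the gene body alone, 3 with 50 kb flanks (against 4 in other genes) and 4 with promoter regions counted too, and ranged from 2 to 3 when either library was left out. The causes of these shifts were not tested. Leaving out members whose region lies within 1000 bp of another gene's start, chosen after seeing the data, left 52 members. No paired analysis was possible because the 2 libraries form 1 group. Unknown depth limits every statement on a missing region.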
